A study of Mus musculus with 4 samples.

Results

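The spots described here are the 64 places in a section of a mouse embryo at stage E13.5 (embryonic day) with the most RNA from 4 genes of stratified epithelium. The genes are the basal keratins Krt5, Krt14 and Krt15 and the transcription factor Trp63. Spots over tissue with at least 500 UMIs (unique molecular identifiers, which count RNA molecules) were kept. Each was scored by the mean over the 4 genes of the log of 1 plus its UMIs per 10000, and the 64 highest of 3220 kept spots, or 1.99%, are called members. The whole series held 7435 kept spots. It measured wild-type, untreated mouse tissue with Visium arrays, in which barcoded capture spots on a slide record the RNA of the tissue above them. Fresh frozen blocks were cut at 8 µm, and there was 1 section at E13.5, 1 at E16.5 and 2 of the neonatal esophagus at birth (P0). The E13.5 sample is titled as esophagus, but its source is given as mouse embryo and the section holds liver, heart, brain and muscle genes too. The labels do not name the animal behind a section. A spot covers several cells, so members are mixtures, and fewer epithelial cells cannot be told apart from less RNA per cell.

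Stratified epithelia cover the skin, mouth, esophagus and other surfaces exposed to wear. At mid-gestation they are thin: a basal layer that divides and is anchored to a basement membrane through hemidesmosomes, under a temporary outer sheet, the periderm. Trp63 is the master regulator of the basal state, and the later layers with their differentiation keratins and cornified envelope form towards birth. Before then the same sheets bud inward to make hair, teeth and glands, under signals of the Wnt, Hedgehog, BMP and FGF families exchanged with the mesenchyme beneath.

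The lowest score among members was 1.012 and the highest score outside them was 1.011, so the limit cuts a continuous range: 13 members lay within 10% above it and 11 other spots within 10% below. The median score of the other spots was 0. The rule genes are therefore given as a description alone. Summed over members, the 138 spots that touch a member (the ring) and all 3156 other kept spots, Krt5 had 474, 68.8 and 12.6 UMIs per 1000000 UMIs (CPM), Krt14 446, 65.6 and 8.64 CPM, Krt15 824, 189 and 23.8 CPM, and Trp63 105, 18.3 and 3.01 CPM. UMIs of all 4 genes were present in 46 members and of 3 in 16. No finer cell type is given to any spot.

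With 1 section and 1 library there is no replicate, so no test was made. Intervals are exact 95% intervals that cover counting error only, and every comparison is between sums of spots of one section. Members were shallower than the rest, with a median of 21340.5 UMIs (range 7577 to 59752), against 25056.5 in the ring and 29498 in all other kept spots. Mitochondrial genes held 1.86% of UMIs in members and 2.53% in the other spots. At the edge of the tissue, meaning with fewer than 6 neighbouring positions over tissue on the array, lay 25 of 64 members (39.1%), against 21 ring spots (15.2%) and 373 other spots (11.8%). The part of depth and edge position in the results was not tested.

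**Figure D1:**
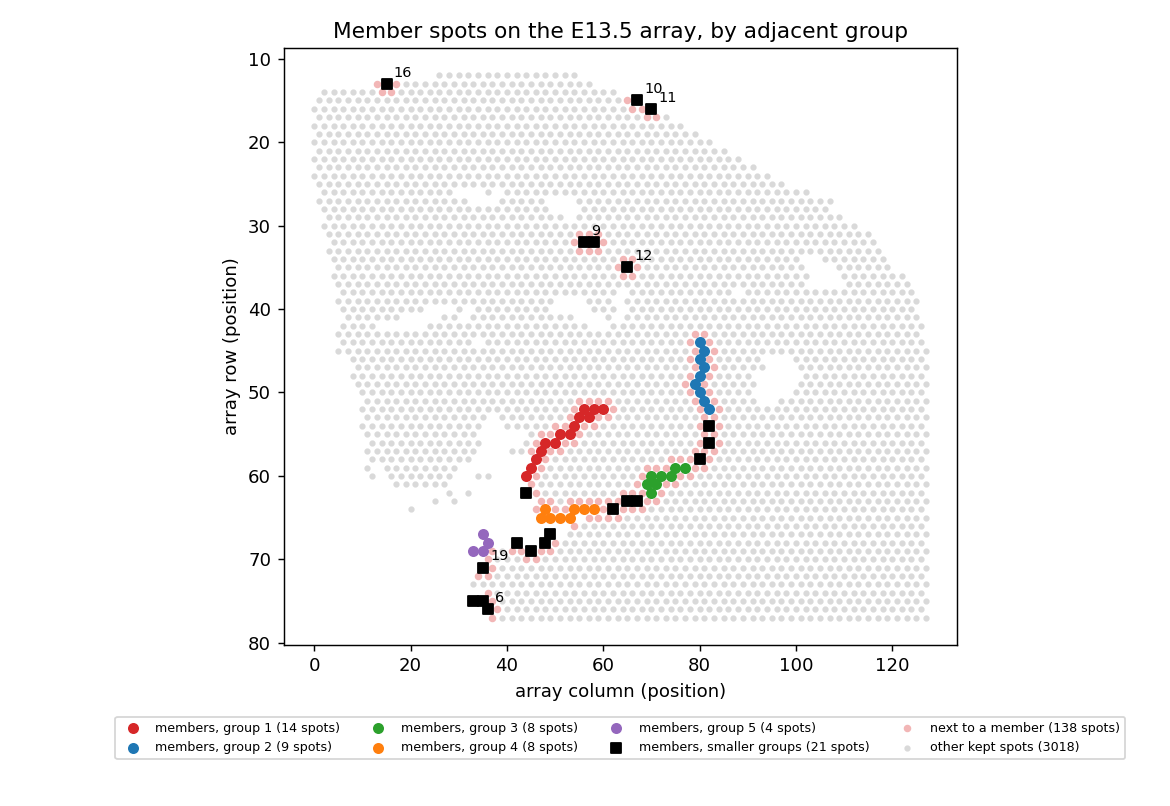
Positions of the kept spots of the E13.5 section on the array (row down, column across, in array positions), with members coloured by adjacent group, smaller groups as black squares and the 138 spots next to a member in pink. The 64 members form 21 groups, among them a 14-spot strip, a broken line of groups 2, 3 and 4, and single spots at the upper edge.

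Of 10206 genes measured at a mean of at least 10 CPM over the 2 sums, 474 (4.64%) were at least 2-fold higher in members than in all other kept spots and 1026 (10.1%) at least 2-fold lower. Members were chosen on these counts, so the shares describe the choice and nothing is read from them. The median log2 ratio over all genes was 0.04. At least 4-fold higher were 125 genes and at least 16-fold higher 22. Against the ring, 191 of 9846 genes (1.94%) were at least 2-fold higher and 200 (2.03%) lower, and 155 genes were 2-fold higher against both.

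Col17a1, the transmembrane collagen of hemidesmosomes, had the highest ratio of the measured genes. It lies on chromosome 19 (47646341 to 47692042, GRCm38.p6). Across the 64 members it had between 0 and 2.90 UMIs per 10000, with a median of 0.519, and 43 members had at least 1 UMI. The other spots had a median of 0 and a highest value of 1.27, so the 2 sets of spots overlap at the low end. Summed, its level was 63.4 CPM (51.2 to 77.6) in members, 9.44 CPM in the ring and 1.61 CPM in all other spots, a ratio of 39.5 (30.2 to 51.3) over the other spots. After thinning each spot to 10000 UMIs, which 62 members and 2992 other spots reach, 48.4% of members and 1.94% of other spots kept a Col17a1 UMI.

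Cxcl14, a chemokine made by epithelia, lies on chromosome 13 (56288643 to 56296811). It ranged from 0 to 33.3 UMIs per 10000 in members, with a median of 5.57, and 20 of the 64 members had none. Its summed level was 700 CPM (658 to 744) in members, 233 CPM in the ring and 29.4 CPM in all other spots, or 23.8 times (22.2 to 25.6) higher in members. Some other spots reached 23.8 UMIs per 10000, so its range outside the members overlaps that inside. Its presence and absence among members followed their position, as described further on.

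Sfn encodes stratifin, the 14-3-3 protein of stratified epithelium, and lies on chromosome 4 (133600556 to 133602168). It was found in 62 of 64 members, with 0 to 5.31 UMIs per 10000 and a median of 1.44. Summed, it had 175 CPM in members, 42.1 CPM in the ring and 9.14 CPM elsewhere, a ratio of 19.1 (16.6 to 22.0). Unlike Cxcl14, it was present in nearly every member of every group.

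Others of the 25 genes are described by what they encode. The desmosome plaque proteins Pkp1 and Pkp3 had 29.7 and 49.2 CPM in members, 5.94 and 7.56 CPM in the ring, and 0.803 and 1.63 CPM in all other spots. S100a14, a small calcium-binding protein of epithelia, had 70.2 CPM in members, 15.1 CPM in the ring and 1.93 CPM elsewhere. These 3 genes were each at least 30-fold higher in members than in all other spots. Esrp1, which directs epithelial splicing, had 93.8 CPM in members and 3.65 CPM in the other spots. Transcription factors of surface epithelium were on the same list of 25 genes: Tfap2c (21.6 CPM in members, 0.648 CPM in other spots), Grhl3 (39.1 and 1.64 CPM) and Grhl2 (23.6 and 1.13 CPM). Krt17, a keratin of early epidermis and of appendages, had 97.1 CPM in members and 5.33 CPM elsewhere. Foxe1, a forkhead factor of the mouth, pharynx and thyroid, had 56.7 CPM in members and 2.90 CPM elsewhere, with UMIs in 27 members. Its log2 ratio of 4.07 was 3.42 without group 2, and that of Upk3bl, a uroplakin-like membrane protein, was 4.12 with group 2 and 3.43 without it.

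**Figure D2:**
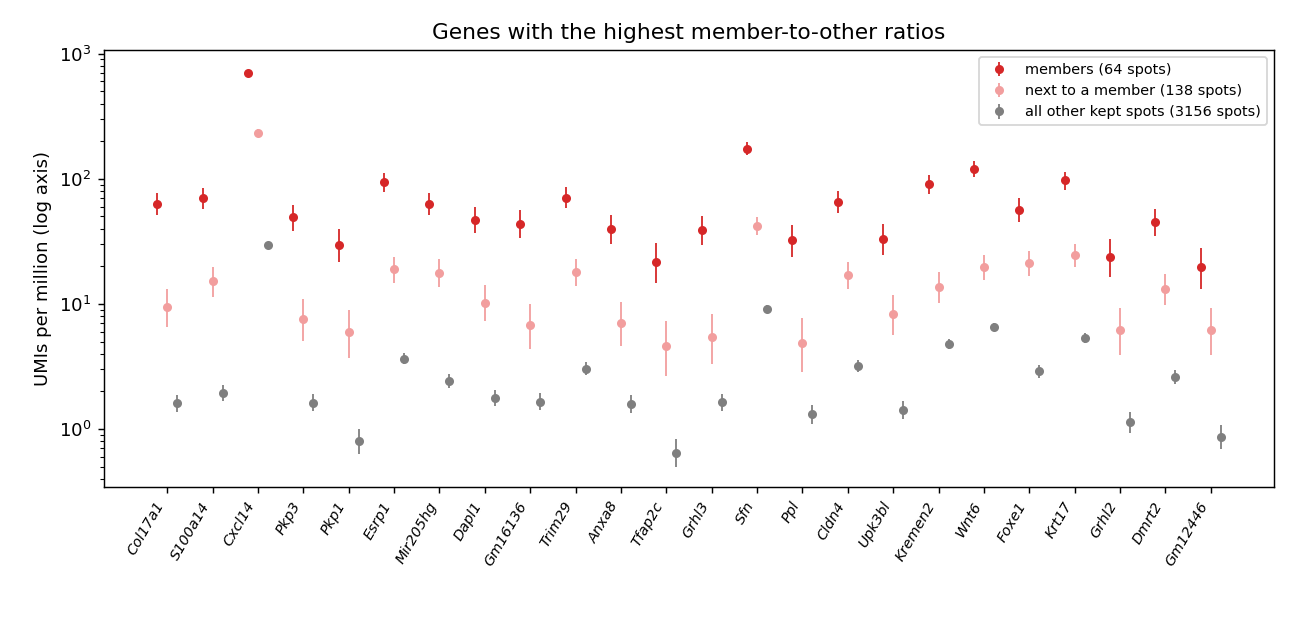
CPM (log axis) for genes among the 25 with the highest ratio of members to all other kept spots, in order of that ratio, with exact 95% counting intervals; red, members; pink, spots next to a member; grey, all other kept spots. In each gene drawn the ring lies between the members and the rest, as for Col17a1 at 63.4, 9.44 and 1.61.

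Another of these 25, Mir205hg, is the host RNA of the microRNA miR-205, which is abundant in stratified epithelia. The host RNA had 63.4 CPM in members, 17.8 CPM in the ring and 2.42 CPM in all other spots, with UMIs in 40 members. The mature microRNA itself is not measured by this assay. Its sequence is shown, with the seed (bases 2 to 8) in capitals, to identify what the host RNA encodes; it lies at chr1:193507503-193507524 on the minus strand (RefSeq, GRCm38.p6).
mmu-miR-205-5p: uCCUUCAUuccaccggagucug

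Grainyhead-like factors such as Grhl2 and Grhl3 bind DNA at the letters AACNGGTT. Those letters, on either strand (AACNGGTT or AACCNGTT), occur in the promoter of 634 of 27025 genes in the RefSeq table, or 2.35%, where a promoter is 250 bases before to 50 after the start. Of the 125 genes at least 4-fold higher in members, 75 have a promoter in that table and 7 of these hold the letters. With so few matched, a comparison with other genes is void and none is drawn. A further 4 motifs were looked for in the same 75 promoters. The Tfap2 letters GCCNNNGGC matched 21 (28%), beside 30.6% of measured genes and 18.5% of the RefSeq table. The letters TATAAA matched 14 (18.7%), beside 8.37% and 15.7%. The p63 letters, CATG repeated after 6 or after 5 bases, matched 0. They are rare in all promoters: spaced by 6 they matched 0.307% of measured genes and 0.833% of the RefSeq table. Spaced by 5 they matched 0.172% and 0.607%, so a count of 0 among 75 promoters says nothing about these genes. For the Grainyhead-like letters the share of measured genes was 2.22%. No comparison is drawn for these 4 motifs, because only 75 of the 125 genes have a promoter in the RefSeq table. Among the 25 leading genes, 3 hold the Grainyhead-like letters, and their promoters are printed 5′ to 3′ on the gene's strand. The match is in capitals, to show where it sits. These promoters are Mir205hg (chr1:193510161-193510460, minus strand), Sfn (chr4:133602119-133602418, minus strand) and Upk3bl (chr5:136057017-136057316, plus strand). A match is a description of letters, not a binding site.
Mir205hg: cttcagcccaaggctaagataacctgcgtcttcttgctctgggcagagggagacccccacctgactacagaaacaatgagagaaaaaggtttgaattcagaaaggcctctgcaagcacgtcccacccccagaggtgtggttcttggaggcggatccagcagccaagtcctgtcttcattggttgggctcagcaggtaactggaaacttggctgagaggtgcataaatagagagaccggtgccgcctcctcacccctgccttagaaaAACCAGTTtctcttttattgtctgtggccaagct
Sfn: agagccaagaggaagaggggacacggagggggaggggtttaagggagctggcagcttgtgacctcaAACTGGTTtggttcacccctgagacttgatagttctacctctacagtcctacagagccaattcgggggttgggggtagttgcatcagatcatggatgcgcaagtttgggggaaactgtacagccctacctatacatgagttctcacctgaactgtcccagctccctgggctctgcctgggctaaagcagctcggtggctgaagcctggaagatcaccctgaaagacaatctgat
Upk3bl: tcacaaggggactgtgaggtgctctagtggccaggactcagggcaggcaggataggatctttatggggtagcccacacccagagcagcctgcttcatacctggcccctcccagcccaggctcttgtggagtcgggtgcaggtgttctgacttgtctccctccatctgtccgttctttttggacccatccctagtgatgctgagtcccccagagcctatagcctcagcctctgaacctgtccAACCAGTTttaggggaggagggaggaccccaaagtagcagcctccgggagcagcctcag

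For the list counts that follow, the shares over all measured genes were 4.64% higher and 10.1% lower against other spots. Against the ring they were 1.94% higher and 2.03% lower. The general epithelial genes were higher throughout. Of 17 measured genes of simple epithelium and adhesion, 17 were at least 2-fold higher in members than in all other spots, with a median log2 ratio of 3.37, against 0.04 over all genes. All 17 were also 2-fold higher than in the ring. Epcam, the adhesion molecule that marks most epithelia, had 215 CPM in members, 51.0 CPM in the ring and 17.7 CPM elsewhere. E-cadherin (Cdh1) had 74.2 CPM in members, 14.6 CPM in the ring and 7.31 CPM elsewhere. Keratins of simple and early epithelium were in members as well: Krt8 at 83.7 CPM in members, 35.6 CPM in the ring and 20.3 CPM elsewhere, and Krt19 at 94.5, 24.0 and 8.35 CPM.

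Of the hemidesmosome and basement membrane genes, 9 of 15 were at least 2-fold higher in members and 0 lower, with a median log2 ratio of 1.44, which was below 2-fold (0.854) when the largest number of member spots was tried. They included Itgb4, the integrin partner of Col17a1 (39.1 CPM in members, 3.08 CPM elsewhere), and Col7a1, the anchoring fibril collagen (72.9 and 5.79 CPM). Dst, whose epithelial form links keratin to hemidesmosomes but which nerve and muscle also use, did not stand out, with 83.7 CPM in members, 60.2 CPM in the ring and 74.2 CPM elsewhere. Every one of 9 measured desmosome genes was at least 2-fold higher, with a median of 3.74. Perp, a desmosome membrane protein that Trp63 activates, had 225 CPM in members, 41.8 CPM in the ring and 15.2 CPM elsewhere. Desmoplakin (Dsp) had 206, 41.8 and 22.7 CPM in the same order. Plakoglobin (Jup), which adherens junctions of other tissues share, differed less, with 123 CPM in members and 52.0 CPM in all other spots, a ratio of 2.36 (2.03 to 2.74).

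Among transcription factors of stratified epithelium, 8 of 10 measured were at least 2-fold higher and 0 lower, with a median of 2.89. Klf5, a factor of proliferating epithelium, had 75.6 CPM in members and 10.4 CPM elsewhere. Sox2, which is needed for foregut and oral epithelium and is also a neural progenitor factor, had 78.9 CPM in members, 19.4 CPM in the ring and 34.0 CPM in all other spots. Its ratio over the other spots was 2.32 (1.91 to 2.79), while that over the ring was 4.06 (3.004 to 5.53), and its level more than 5 steps from any member was 41.8 CPM.

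Of 26 listed genes of periderm and suprabasal layers, 7 passed the level limit, and 4 of these were at least 2-fold higher and 0 lower, with a median log2 ratio of 2.55. Over the ring, 6 of 8 measured were at least 2-fold higher, and the whole list summed to 527 CPM in members and 178 CPM in the ring. Krt6b, Krt16, Sprr1b, Sprr3, Ivl and Cnfn, which belong to upper layers or to stressed epithelium, had no UMI in any member. Krt10, the main keratin of suprabasal epidermis, had 41.2 CPM in members, 41.0 CPM in the ring and 47.2 CPM elsewhere, a ratio over the others of 0.872 (0.666 to 1.12). Its partner Krt1 had 18.9 CPM in members and 9.95 CPM elsewhere. Lgals7, a galectin of stratified epithelium, was higher in members, with 75.6 CPM in members, 15.1 CPM in the ring and 12.5 CPM elsewhere. Krtdap, a peptide of differentiating keratinocytes, had 22.9 CPM in members and 2.43 CPM in the ring, a ratio of 9.44 (4.44 to 22.4). UMIs of Krtdap were in 15 members, and its log2 ratio over the ring was 3.001 with group 1 and 3.79 without it.

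Members carried Wnt ligands. Of 14 measured Wnt ligand and receptor genes, 10 were at least 2-fold higher in members than in all other spots and 0 lower. Their median log2 ratio was 1.52. Against the ring, 6 of 15 were 2-fold higher. Over all measured genes, 4.64% were higher than in other spots and 1.94% higher than in the ring. Wnt6, a ligand of embryonic surface epithelium, ranged from 0 to 4.95 UMIs per 10000 in members, with a median of 0.902, and 50 members had at least 1 UMI. Its level was 120 CPM (103 to 139) in members, 19.7 CPM in the ring and 6.54 CPM elsewhere. Wnt4 had 56.0 CPM in members, 10.5 CPM in the ring and 8.38 CPM elsewhere. Wnt7b had 65.4 CPM in members, 10.3 CPM in the ring and 19.5 CPM elsewhere. The 3 ligands were each over 5-fold higher in members than 1 step away. Wnt5a, a ligand that mesenchyme also makes, ran the other way next to the members, with 113 CPM in members, 159 CPM in the ring and 44.8 CPM in all other spots; its ratio over the ring was 0.706 (0.591 to 0.840).

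Of the receptors, the R-spondin receptor Lgr6 had 20.2 CPM in members and 3.78 CPM in the ring. Its relative Lgr5 had 41.8 CPM in members, 26.4 CPM in the ring and 4.68 CPM in all other spots. Among Wnt targets and inhibitors, 10 of 14 were at least 2-fold higher and 0 lower, beside 4.64% and 10.1% over all measured genes. Against the ring, 4 of 17 were at least 2-fold higher and 1 lower, beside 1.94% and 2.03%. The list summed to 1008 CPM in members and 890 CPM in the ring, so most of it did not drop sharply 1 step away. Kremen2, a co-receptor of the Dkk inhibitors, had 0 to 6.10 UMIs per 10000 in members, with a median of 0.641, and summed to 90.4 CPM in members, 13.8 CPM in the ring and 4.77 CPM elsewhere. Lef1, a transcription factor that acts with beta-catenin, had 98.5 CPM in members, 38.0 CPM in the ring and 12.5 CPM elsewhere. Kremen2 was thus 6.57 times (4.72 to 9.26) and Lef1 2.59 times (2.04 to 3.29) higher in members than in the ring.

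Hedgehog genes differed in how sharply they dropped next to the members. Shh, the ligand, had 29.7 CPM in members, 7.83 CPM in the ring and 5.16 CPM in all other spots, and 16 of 64 members held a Shh UMI. Its level was uneven among the adjacent groups of members, at 10.6 CPM in groups 1, 4 and 5 and 29.2 CPM in groups 2 and 3. The 3 spots of groups 9 and 12 had 107 CPM and the 4 spots of groups 6 and 19 had 145 CPM. Gli1, a target of the pathway, had 56.7 CPM in members and 57.7 CPM in the ring, a ratio of 0.981 (0.753 to 1.27), against 22.1 CPM in all other spots. Ptch1, the main receptor and also a target, had 117 CPM in members, 93.4 CPM in the ring and 60.3 CPM elsewhere. In total 4 of 11 Hedgehog genes were at least 2-fold higher in members than in all other spots and 0 lower. The shares over all measured genes were 4.64% and 10.1%.

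Lists of particular epithelial regions differed in how many of their genes were higher, beside 4.64% higher and 10.1% lower over all measured genes. Of 7 measured oral and dental genes, 4 were at least 2-fold higher in members than in all other spots and 1 lower, and of 7 genes of skin appendage placodes 4 were higher and 1 lower. Against the ring, 2 of 6 oral and dental genes and 3 of 7 placode genes were higher and 0 lower. The shares over all measured genes there were 1.94% and 2.03%. The oral and dental list summed to 395 CPM in members and 292 CPM in the ring. Of 4 foregut and airway endoderm genes 2 were higher and 0 lower, and all 3 measured genes of sensory placode, lens and nasal epithelium were lower. All 3 measured genes of urogenital and mammary epithelium were higher. The lists share genes, so their counts are not separate: Foxa1 was counted in this list and in the foregut list. Wnt7b was counted in this list and among the Wnt ligands. Of 5 genes of the pharynx, thymus, salivary gland and thyroid, 1 was higher and 0 lower. The oral and dental list differed with the place in the section, as the adjacent groups show. It summed to 57.6 CPM in group 1 and 52.9 CPM in group 5. The sums were 735 CPM in group 2, 532 CPM in group 3 and 819 CPM in group 4. In group 4 the list gene Pitx1 alone had 606 CPM, while 3 of the 8 spots held Foxe1 and 1 held Pax9.

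BMP genes were at least 2-fold higher in 6 of 15 cases and lower in 0, FGF genes in 4 of 8 and 0, and Notch genes in 3 of 11 and 1, beside 4.64% higher and 10.1% lower over all measured genes. Sostdc1, an inhibitor of BMP and Wnt signals, had 137 CPM in members, 96.9 CPM in the ring and 13.2 CPM elsewhere. Fgfr2, whose epithelial form receives FGF signals from mesenchyme, had 177 CPM in members, 68.5 CPM in the ring and 44.2 CPM elsewhere. Hes5, a Notch target of neural progenitors, was the lower Notch gene, with 6.07 CPM in members and 33.8 CPM elsewhere. The growth factor Pdgfa and its receptor Pdgfra differed in opposite directions between members and ring: Pdgfa had 105 CPM in members and 35.3 CPM in the ring, while Pdgfra, a receptor of mesenchyme, had 135 CPM in members and 191 CPM in the ring.

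**Figure D3:**
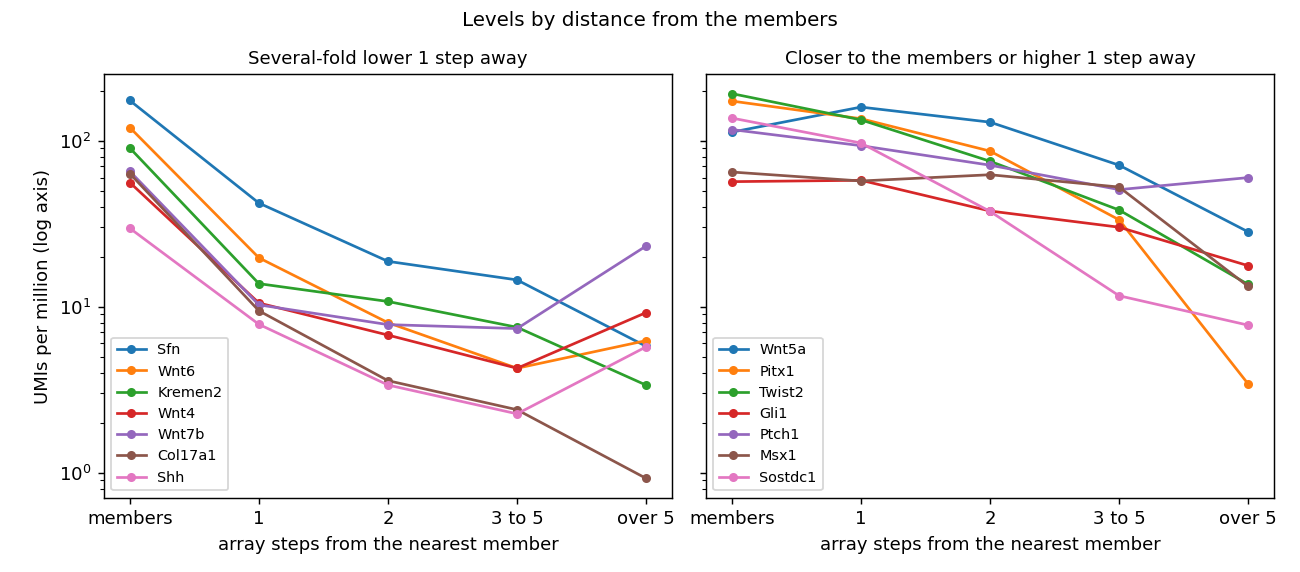
Summed CPM (log axis) of 14 genes in members and in spots 1, 2, 3 to 5 and over 5 array steps from the nearest member. On the left are genes several-fold lower 1 step away (Wnt6, 120 in members and 19.7 at 1 step), and on the right genes whose level 1 step away was near or above that of the members (Wnt5a, 113 and 159).

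Genes of the underlying mesenchyme were also present in members. Twist2, a dermal factor, had 192 CPM in members, 134 CPM in the ring, 75.2 CPM at 2 steps, 38.2 CPM at 3 to 5 steps and 13.6 CPM beyond. Pitx1, a homeodomain factor of the jaw and hindlimb region that is made by both oral epithelium and mesenchyme, had 173, 136, 86.6, 33.4 and 3.42 CPM over the same distances. Msx1, a factor of facial mesenchyme, had 64.8, 57.2, 62.4, 52.6 and 13.2 CPM. Each of the 3 was thus within 1.5-fold of its member level 1 step away. Of 15 dermis and connective tissue genes, 3 were at least 2-fold higher in members than in all other spots and 0 lower, and their summed level was 7926 CPM in members and 9846 CPM in the ring. Of 9 craniofacial mesenchyme genes, 5 were at least 2-fold higher and 0 lower, with 522 CPM in members and 693 CPM in the ring.

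Marker lists of other organs and cell types differed in how many of their genes were lower. All 11 neuron genes, all 7 liver genes and all 6 heart genes measured were at least 2-fold lower in members than in all other spots, as were 7 of 8 cartilage and bone genes, 5 of 11 skeletal muscle genes and 5 of 9 endothelial genes. The same held for 5 of 9 blood genes, 1 of 8 immune genes and 0 of 6 smooth muscle genes, beside 10.1% lower over all measured genes. Against the ring, 4 of 6 smooth muscle genes were at least 2-fold lower, beside 2.03% over all measured genes. The smooth muscle list summed to 434 CPM in members and 898 CPM in the ring. Among members it had 2984 CPM in the 3 spots of groups 9 and 12 and 104 CPM in groups 2 and 3. The members' summed neuron level was 474 CPM, with 852 CPM in the ring. Blood genes summed to 17931 CPM in members and 18452 CPM in the ring, and differed widely among members, as given below. Their part in the member values was not tested. Nxph4 and D930028M14Rik, among the 10 genes with the lowest ratios, had no UMI in members and were at least 10.6-fold and 12.4-fold lower there at a floor of 3 counts in the member sum. Ttr, the thyroxine carrier of liver and choroid plexus, had 37.8 CPM in members, 40.7 CPM in the ring and 902 CPM in all other spots. Cell cycle genes were modestly higher, with 4 of 14 past 2-fold and a median log2 ratio of 0.86, but of 0.11 against the ring. Hox genes, which mark position along the trunk, were at least 2-fold lower in 14 of 20 cases and higher in 0.

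The 64 members formed 21 adjacent groups on the hexagonal array, of 14, 9, 8, 8, 4 and 3 spots, 3 of 2 spots and 12 single spots. A total of 43 members (67.2%) lay in the 5 groups of at least 4, and 52 touched another member. Group 1 was a strip of 14 spots over rows 52 to 60, with 3 spots at the tissue edge. Group 2 was a line of 9 spots over rows 44 to 52, and group 3 a patch of 8, both with 0 spots at the edge. Group 4 had 8 spots, 6 at the edge, and group 5 had 4 spots, all at the edge. The way groups are set beside each other here was chosen after their values were seen, and they are pieces of one section, not replicates.

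Cxcl14 divided the large groups. In groups 1, 4 and 5 it had UMIs in 25 of 26 spots, from 0 to 33.3 UMIs per 10000 with a median of 12.04, and every spot of group 1 had at least 5.95. In groups 2 and 3 it was found in 6 of 17 spots and reached at most 0.992. The 2 sets overlapped only through 2 spots of group 4. Summed, groups 1, 4 and 5 had 1387 CPM (1291 to 1487) and groups 2 and 3 had 18.6 CPM (7.48 to 38.3). Lef1 had UMIs in 22 of 26 spots of groups 1, 4 and 5 and in 2 of 17 of groups 2 and 3. The blood list also differed between them, at 20203 CPM in groups 1, 4 and 5 and 3879 CPM in groups 2 and 3, and its part was not tested.

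Other genes were found more often in groups 2 and 3. Sox2 had UMIs in 5 of 26 spots of groups 1, 4 and 5 and in 14 of 17 spots of groups 2 and 3. Of those 5 spots 4 were in group 4, whose Sox2 level of 131 CPM (74.9 to 213) was near the 143 CPM (92.6 to 211) of group 3, while group 1 had 0 Sox2 UMIs. Foxe1 was found in 3 of 26 and 14 of 17 spots, and Pax9, a factor of the pharynx, teeth and palate, in 2 of 26 and 15 of 17. Wfdc2, a secreted protein of airway and oral epithelium, was found in 12 of 26 spots and in all 17. Krt8 summed to 26.5 CPM in groups 1, 4 and 5 and 165 CPM in groups 2 and 3. Sfn, by contrast, was present in 25 of 26 and 16 of 17 spots. Over all 64 members, 13 had UMIs of both Cxcl14 and Sox2, 31 of Cxcl14 alone, 18 of Sox2 alone and 2 of neither. Cxcl14 and Sox2 thus lay mostly in different members, while Sfn was found in both sets of groups.

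Each large group also had leading genes of its own, taken against all other members. Group 1 was led by Cpa3, a mast cell protease, with 97.0 CPM in group 1 and 5.21 CPM in the other members. Next came Prss35, a secreted serine protease homologue (252 and 19.1 CPM), Cpxm2, a carboxypeptidase relative (69.7 and 5.21 CPM), and Irx1, an Iroquois homeodomain factor (91.0 and 7.81 CPM). Myl2, a light chain of heart and slow muscle myosin (352 and 34.7 CPM), and Hoxc5 (100.1 and 11.3 CPM) followed. All 14 of its spots held UMIs of Cxcl14, Kremen2 and Twist2, and none of Sox2 or Foxe1. Group 2 was led by Aldh1a2, which makes retinoic acid (189 CPM in group 2, 21.1 CPM in the other members), and included Pax9 (169 and 24.2 CPM) and Wfdc2 (611 and 90.6 CPM). Group 3 was led by Barx1, a factor of stomach and dental mesenchyme (120 and 23.7 CPM), and included Myh3, the embryonic skeletal myosin (200.3 and 42.8 CPM); its skeletal muscle list summed to 1413 CPM, against 653 CPM over all members. Group 4 was led by Mab21l2, which acts in eye and facial development (278 and 52.2 CPM), and included Pitx1 (606 and 135 CPM) and Msx1 (172 and 55.1 CPM). Group 5 was led by Sox18, a factor of vessels and hair follicle mesenchyme (326 and 22.6 CPM), and included Hey2, a Notch target factor (176 and 21.9 CPM).

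**Figure D4:**
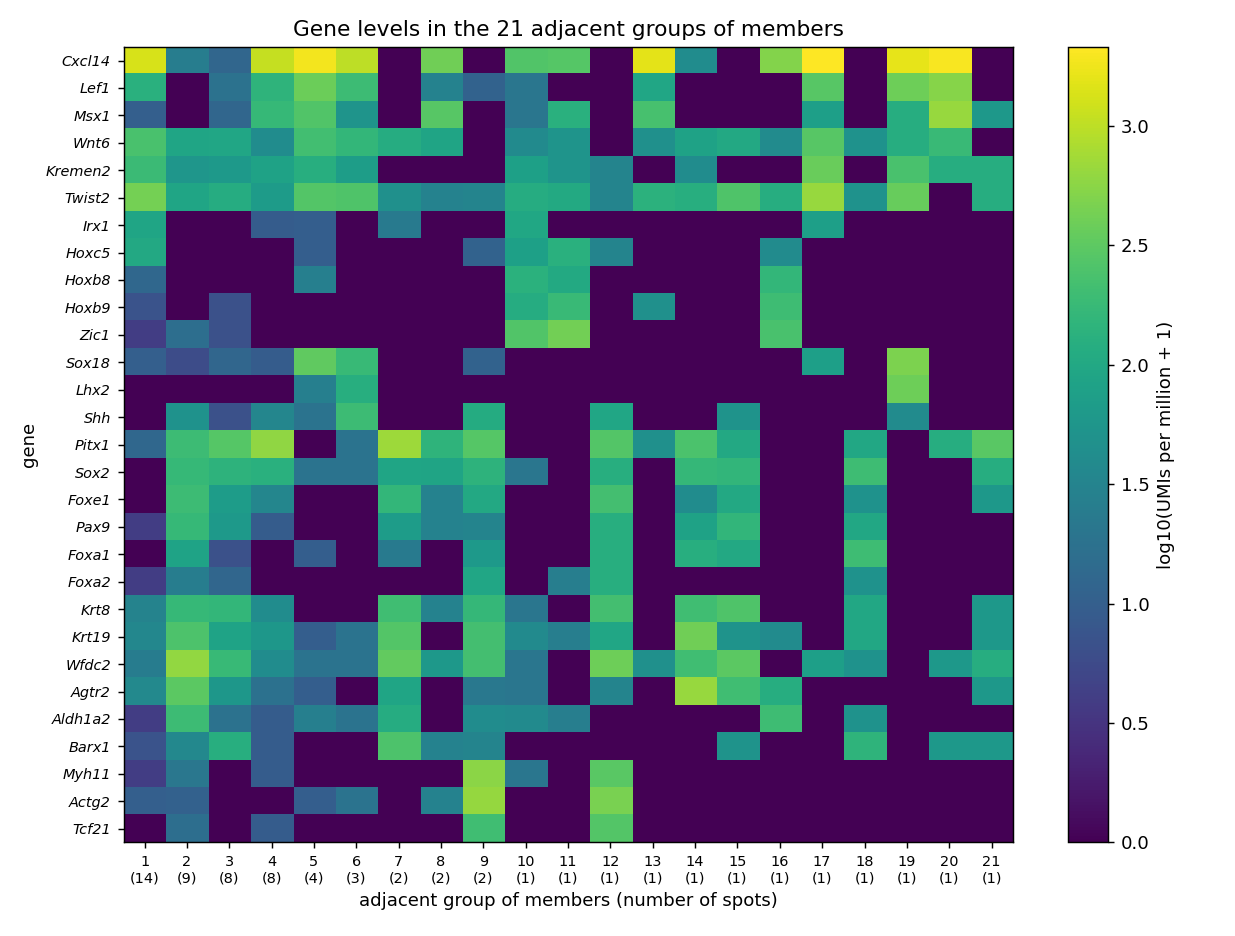
Gene levels, as log10 of CPM (UMIs per 1000000) plus 1, in each of the 21 adjacent groups of members (number of spots in brackets). Cxcl14 is high in groups 1, 4 and 5 and low in groups 2 and 3, where Sox2, Foxe1, Pax9 and Wfdc2 are high. Most columns to the right are single spots, with totals from 13515 UMIs (group 17) to 52316 UMIs (group 10).

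When spots up to 2 steps apart were joined, the 21 groups became 8. The largest held 35 spots and joined 11 of the groups, running as a curved line from group 2 through group 3 to group 4 and the tissue edge. Along it Cxcl14 had at most 2 UMIs in every spot of groups 2, 14, 15, 18, 3, 7 and 21. In group 4 it had 0 and 1 UMI at columns 58 and 56, 10 UMIs at column 54, and 12 to 58 UMIs in the 5 spots at columns 47 to 53. Past group 4 lay groups 8, 13 and 20: group 8 had 1 Cxcl14 UMI in its spot at row 67 and 13 UMIs in that at row 68, and groups 13 and 20 had 34 and 33 UMIs. Low and high values thus occurred within groups 4 and 8. Sox2 in group 4 had 7 UMIs at column 58, 4 at each of columns 54 and 53, 1 at column 49 and 0 in the other 4 spots. Within group 4 Pitx1 did not share this change, with at least 4 UMIs in each of the 8 spots. Past group 4 it was lower, with 3 and 2 UMIs in the spots of group 8. Groups 13 and 20 had 1 and 2 Pitx1 UMIs. The other large chain, group 1 with 1 spot beyond it, had 469 Cxcl14 UMIs, 0 Sox2 UMIs and 4 Pitx1 UMIs in its 15 spots.

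Some of the smaller groups had levels unlike those of the large ones. Groups 9 and 12, 3 spots deep in the section at rows 32 to 35, are set beside each other here. Their smooth muscle list summed to 2984 CPM (2696 to 3295), against 434 CPM over all members, with Myh11, the smooth muscle myosin, at 504 CPM and Actg2, an enteric actin, at 588 CPM. Foxa2, a factor of gut and airway endoderm, had 99.2 CPM there, Sox2 137 CPM and Shh 107 CPM, and Cxcl14 had no UMI in 3 of 3 spots. Tcf21, a factor of visceral mesenchyme, had 221 CPM.

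Groups 10, 11 and 16 are 3 single spots at the upper edge, at rows 13 to 16. Groups 10 and 11 lie at columns 67 and 70, and group 16 lies far from them at column 15. The 3 spots are summed here although they are not 1 place. Their Hox list summed to 966 CPM (795 to 1162), against 273 CPM over all members and 449 CPM in group 1. Hoxb8 had 129 CPM and Hoxb9, a neighbouring trunk gene, 155 CPM, while groups 2 and 3 had no Hoxb8 UMI and 1 Hoxb9 UMI. Cxcl14 was present in all 3 spots and summed to 328 CPM, Zic1, a factor of dorsal neural and dermal tissue, to 310.5 CPM, and neither Pitx1 nor Foxe1 had a UMI. Blood genes summed to 62412 CPM in these spots. Groups 6 and 19, 4 spots at the lower left edge, carried Cxcl14 in all 4 spots. Its median there was 12.3 UMIs per 10000, near the 12.04 of groups 1, 4 and 5. Group 19 joins group 5 when spots up to 2 steps apart are joined, and group 6 stays apart. Groups 6 and 19 also held UMIs of the appendage placode genes Lhx2 (122 CPM in group 6, 394 CPM in group 19) and Dkk4 (70.0 and 39.4 CPM), each resting on a few UMIs.

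The same rule was applied to the other sections to see which of these levels recur. The 64 highest spots were 1.78% of kept spots at E16.5 and 17.6% and 24.2% in the P0 replicates, so they are a wider choice at P0, and dissection differs as well. At E16.5, 1218 of 10612 genes (11.5%) were at least 2-fold higher in the chosen spots than in the rest of the section and 1175 (11.1%) lower. Of 401 genes at least 2-fold higher at E13.5 and measured at E16.5, 257 (64.1%) were also 2-fold higher there. In the P0 replicates this held for 5 of 378 genes (1.32%) and 24 of 376 (6.38%). Grhl3 had 39.1 CPM in the chosen spots at E13.5, 53.9 CPM at E16.5, and 116 and 131 CPM in the P0 replicates. Foxe1 had 56.7, 72.7, 166 and 156 CPM over the same sections. In the P0 replicates, 17 (0.182%) and 67 genes (0.699%) were 2-fold higher in the chosen spots than in the rest of their section and 419 (4.49%) and 504 (5.26%) lower. With 1 section at each embryonic stage no test was possible.

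Differentiation genes differed between the sections. Stage cannot be told apart from tissue here, because the P0 sections are of the dissected esophagus and each embryonic stage has 1 section. Krt10 had 41.2 CPM at E13.5, 2384 CPM at E16.5, and 34.1 and 44.8 CPM in the P0 esophagus. Lor, the main protein of the epidermal cornified envelope, had 1.35, 5055, 9.09 and 13.9 CPM in the same order. Krt13, the suprabasal keratin of esophagus and mouth, had 2.70 CPM at E13.5, 4749 CPM at E16.5, and 12602 and 11468 CPM at P0. All 3 had lower levels in the E13.5 members than in the chosen spots at E16.5.

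The next 4 genes, drawn beside the keratins in the plot of stages, were picked after their values were seen. Cxcl14 had 700 CPM at E13.5, 112 CPM at E16.5, and 5.001 and 6.47 CPM in the P0 replicates. Kremen2 had 90.4 CPM, 19.5 CPM, and 0.909 and 1.49 CPM. Lef1 had 98.5 CPM, 19.5 CPM, and 5.91 and 4.48 CPM. Cldn6, a claudin of embryonic epithelium, had 24.96 CPM at E13.5, no UMI at E16.5, and 1.82 and 0.498 CPM at P0. All 4 were highest in the E13.5 members among the 4 sections.

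**Figure D5:**
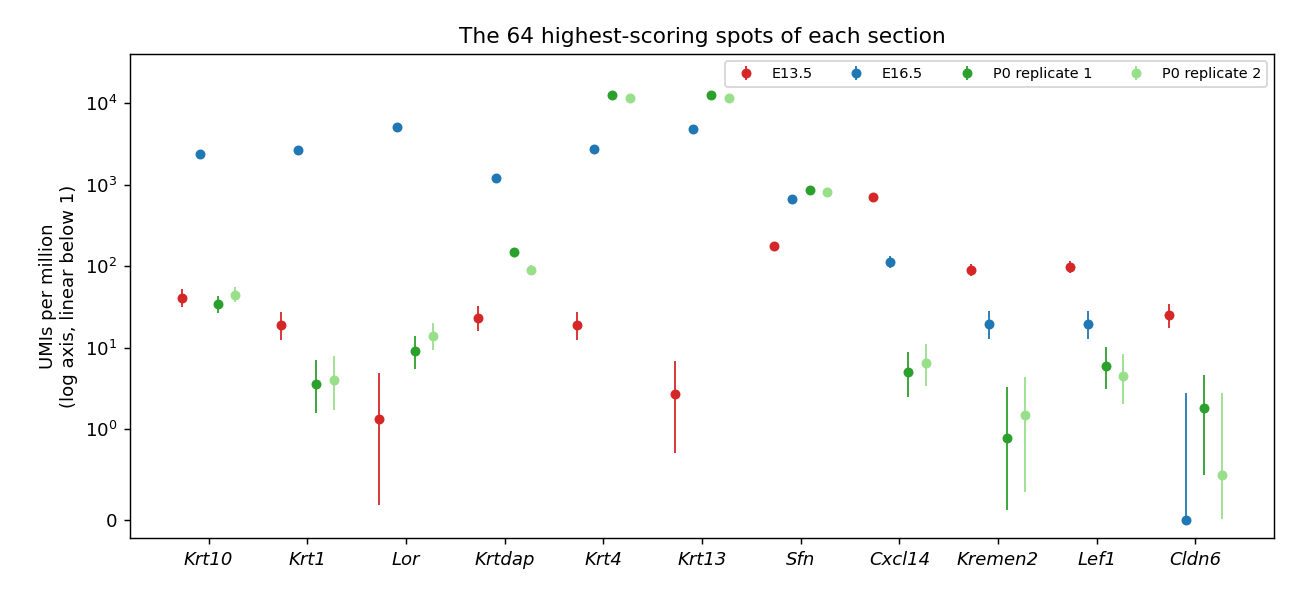
CPM (log axis, linear below 1) of 11 genes in the 64 highest-scoring spots of the E13.5, E16.5 and 2 P0 sections, with exact 95% counting intervals. Krt10, Krt1 and Lor are highest in the E16.5 section, Krt4 and Krt13 in the P0 sections, and Cxcl14, Kremen2, Lef1 and Cldn6 in the E13.5 section. Stage and tissue differ together between the sections.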

How the data were processed

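RNA of tissue sections was captured on Visium arrays. The deposited files hold unnormalized UMI counts of 32285 genes in each spot, beside its array position, made with Space Ranger 2.0.0 per the file headers and, per the submitters' processing notes, against mm10. The tissue images were not used here. The spot minimum was 500 UMIs, and every gene stayed in the sums. UMIs were summed over members, over spots next to a member and over other spots, and given as CPM (per 1000000 UMIs) with exact Poisson 95% intervals. Ratios carry exact conditional intervals, and log2 ratios a pseudocount of 0.5 CPM. A gene counted as measured at a mean of at least 10 CPM over both sums.

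Totals were 98645152 UMIs at E13.5, 105835664 at E16.5, and 10261248 and 7357333 in the P0 replicates. Between 24 and 2542 barcodes recur between sections, as the array's positions do. No doublet caller was run on spots. Thinning used 10000 UMIs per spot.

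The members and the gene lists were chosen with earlier results of these data known. Named genes are the 25 highest and 10 lowest ratios over other spots, the 10 highest over the ring, 6 leading genes for each group of at least 4 spots (with at least 20 UMIs there), up to 4 genes with the most member UMIs in each list and those past 4-fold, Hox genes with at least 10 member UMIs, and signalling genes past 2-fold. The motif search, the sets of groups and the values along the chain of groups were chosen after values were seen. A few genes that the rule names are not reported here. Symbols were matched to RefSeq GRCm38.p6 for positions and promoters.

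Alternatives varied the number of members, the UMI minimum, each rule gene, the score, the summing, the scaling (median and TMM, edgeR 4.0.16 on R 4.3.3), the pseudocount, the level limit, the call and the groups included. Scripts ran in Python 3.11.15 with numpy 2.4.6, pandas 2.3.3, scipy 1.17.1 and matplotlib 3.10.9, and the ratio step was tested on simulated data.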

Additional observations from a re-analysis of the deposited data

How the results depend on the processing

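No paired analysis was possible because each embryonic stage has 1 section and no comparison between groups of samples was tested. The 35 genes named for their ratio over other spots and the 10 named for that over the ring stayed past 2-fold in every alternative run. They were named for the most extreme ratios, so this was nearly fixed in advance and is no support. Of the alternative ratios over other spots, 54 moved by more than the counting interval and 716 did not. After thinning, the share of members with a UMI moved past its interval for 21 of the 25 leading genes, so such counts depend on depth. The list medians past 2-fold were 19 over other spots, of which 13 stayed so in every alternative, and 9 over the ring, of which 5 did. With the largest number of spots tried, the median log2 ratio over other spots was 1.16 for the transcription factors, against 2.89, 2.23 for the desmosome genes, against 3.74, 2.75 for simple epithelium and adhesion, against 3.37, 1.01 for periderm and suprabasal genes, against 2.55, and below 2-fold for hemidesmosome and basement membrane genes (0.854, against 1.44) and appendage placodes (0.904, against 1.37). Against other spots, the genes higher numbered 474 and those lower 1026; a pseudocount of 5 gave 312 higher, a level limit of 50 CPM 120 higher and 218 lower, and intervals wholly past 2-fold 229 higher and 587 lower. Against the ring, the counts were 191 and 200; they were 319 and 358 with the 32 highest spots, 127 higher with the largest number of spots tried, 92 lower with a pseudocount of 5, 313 and 411 with a level limit of 5 CPM, 34 and 26 with 50 CPM, and 98 and 17 with intervals past 2-fold. The 43 members in groups of at least 4 became 16 with 32 spots, 73 with 96 and 106 with the largest number, and the largest group, of 14, had 7 with 32 spots and 38 with the largest number. Joining spots up to 2 steps apart gave 8 groups in place of 21, with 35 spots in the largest. With the highest 2% of spots, P0 replicate 1 had 372 genes higher and 914 lower, against 17 and 419, and P0 replicate 2 had 836 and 1331, against 67 and 504, from a smaller number of spots. Other causes were not tested. Leaving out Krt15 from the score kept 48 of the 64 members, and leaving out Trp63 kept 60. Depth limits genes with few UMIs, whose counting intervals are wide, and the single-spot groups most of all.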
